A study of Mus musculus with 20 samples.

Results

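Ethinylestradiol (EE2) raised a scattered set of genes in male mouse liver that stood low in the vehicle livers, and 82 of these genes are described here. They were chosen from 16464 named genes by measured values: a mean log2 level under 5 on the 5 EE2 vehicle arrays and a mean at least 2 higher, 4-fold, on the 5 EE2 arrays. The rule left out symbols that start with Krt, Sult, Cyp, Fmo, Saa, Orm, S100a, Col, Adam, Mmp, Ccl, Cxcl, Ccr, Serpin, Abc or Gzm and 8 genes by name, which removed 15 of the 97 genes that passed both thresholds. Since the EE2 and EE2 vehicle arrays made the choice, their values for these genes are a description with no test, and tests are given only for chlorpromazine (CPZ) against its own vehicle and for genes outside the set.

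The samples were livers of male C57BL/6 mice aged 10 weeks, weighing 21 to 27 g, gavaged under 4 regimes for 25 days: EE2 at 3.70 mg/kg body weight, its sunflower oil vehicle, CPZ at 10 mg/kg body weight, or its PBS vehicle. Cholestasis, the arrest of bile flow, is a known effect of both drugs, the estrogen of contraceptive pills and an antipsychotic phenothiazine. Each group had 5 Affymetrix arrays, named here by the sample number in the labels: 2, 5, 6, 8 and 16 for oil, 9, 13, 15, 17 and 18 for EE2, 7, 10, 14, 19 and 20 for PBS, and 1, 3, 4, 11 and 12 for CPZ. The labels do not say that each sample came from a separate mouse, so the spread behind the p-values may be technical, and 5 arrays a group set how precise a value can be. The values are the authors' log2 RMA levels, in which a difference of 1 is a doubling and levels of different genes are not on a common scale.

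As background, estrogen acts in hepatocytes through estrogen receptor alpha, a ligand-activated transcription factor, and through the pituitary, whose pattern of growth hormone release sets much of the sex difference of mouse liver by way of STAT5 proteins. Cholestatic and inflamed livers also take up and activate immune cells. Genes that are low in whole liver can therefore become visible through hepatocytes or through other cells. In whole liver RNA, more cells of a type and more RNA per cell cannot be told apart.

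The name near-silent held for fewer than all of them. A level of 5 lay above the array medians, which ran from 4.47 to 4.51 with oil, and 55.0% of all named genes stood under 5. As a reference for genes that liver is not known to express, the 62 olfactory and vomeronasal receptor genes had group means with oil from 2.37 to 4.21, with a median of 2.90 and a 95th percentile of 3.49. Of the 82 genes 35 stood at or under 3.49 with oil, where a change is a lower bound, and 47 stood above it, 27 of them at 4 or more. The set is therefore called low-level genes below. The hepatocyte markers checked the tissue: the mean of 8 measured markers was between 12.6 and 12.8 on all 20 arrays.

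The changes ran from 2.00 to 7.05 with a median of 2.77, or 6.80-fold, beside a median change of -0.07 over all genes. At least 3 was reached by 36 genes, at least 4 by 16 and at least 5 by 5. On all 5 EE2 arrays every one of the 82 genes lay above all 5 oil arrays, which the rule makes likely, and 14.6% of all genes did so. Values on every array are given below for the 12 genes with the largest changes, the 5 with the largest spread with EE2 and the one that passed the CPZ test; the other genes shown that way, the role groups and the genes singled out were chosen after their values were seen. The gap between the lowest EE2 array and the highest oil array was smallest for Wfdc12, at 0.64. Just inside the limit on the rise stood Ifi204 at 2.00, Slc22a27 at 2.02 and Ica1 at 2.03, and just outside it Gpx2 at 1.96, Atp10d at 1.96 and Traf3ip2 at 1.95. Just inside the limit on the oil level stood Ifi204 at 5.00, Vopp1 at 4.92 and Asns at 4.87, and just outside it Asrgl1 at 5.02, Coro1a at 5.06 and Pcp4l1 at 5.08, the last with a change of 4.32.

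**Figure D1:**
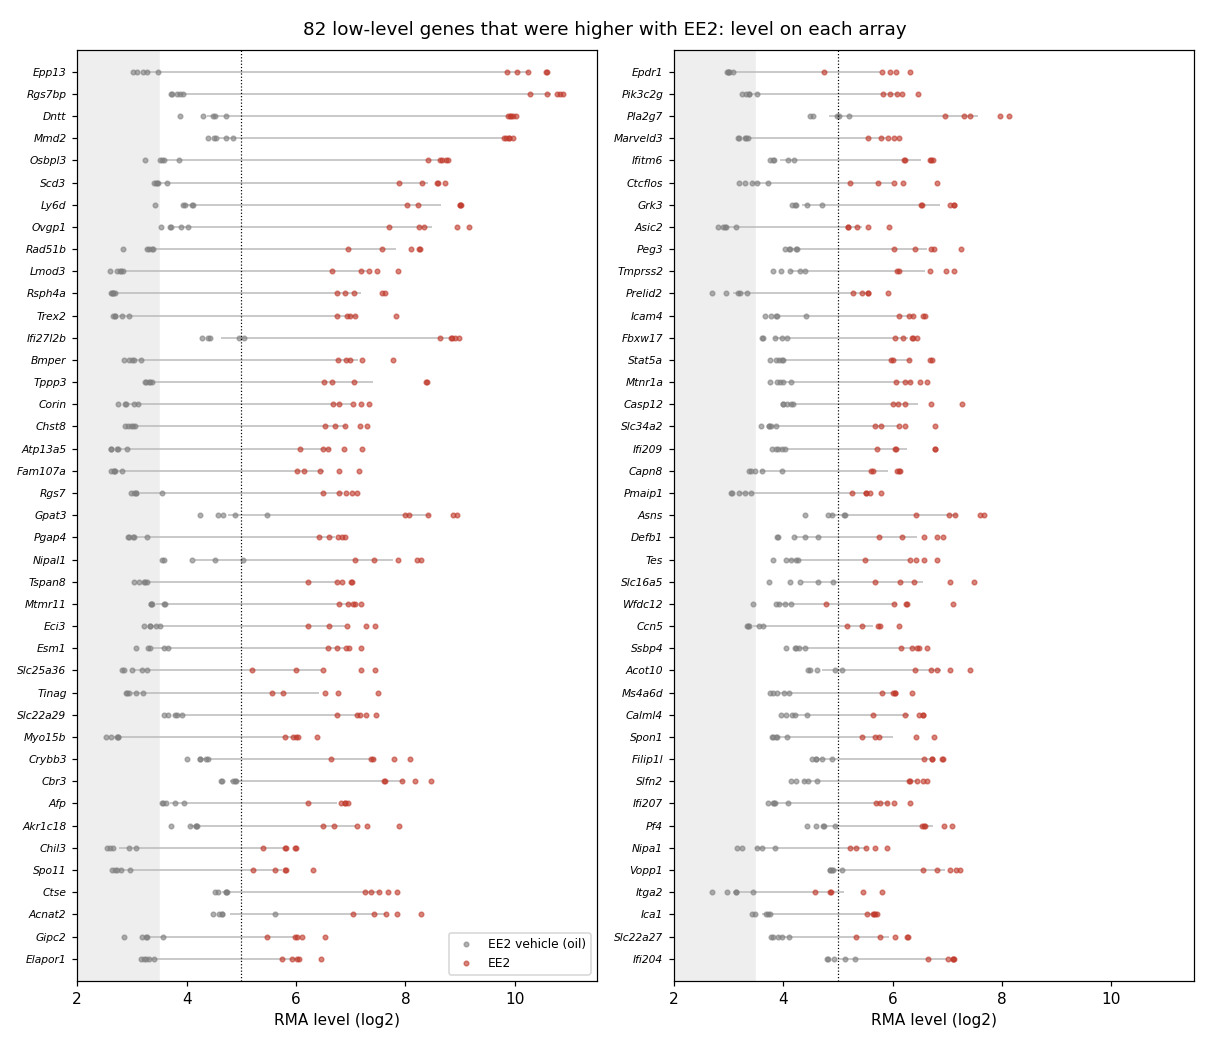
Log2 RMA level (horizontal axis) of each of the 82 genes on the 5 EE2 vehicle arrays (grey points) and the 5 EE2 arrays (red points), ordered by the change, with a line between the group means. The shaded band ends at 3.49, the 95th percentile of the receptor genes with oil, and the dotted line marks 5; the red points lie right of the grey points in every row.

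Epp13 (Entrez gene 627821) showed the largest change of the set. It stood at 3.48, 3.20, 3.09, 3.27 and 3.02 on oil arrays 2, 5, 6, 8 and 16 and at 10.04, 10.56, 10.59, 10.25 and 9.86 on EE2 arrays 9, 13, 15, 17 and 18. The difference of the means was 7.05, or 132-fold, a lower bound since the oil level lay among the receptor genes. With PBS and CPZ it stood between 3.01 and 3.63 on all 10 arrays, so the EE2 arrays alone were high.

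Rgs7bp and Rgs7 are a known protein pair. Rgs7 encodes a regulator of G protein signalling that speeds the shut-off of inhibitory G proteins, known mainly from neurons, and Rgs7bp the palmitoylated protein that holds it at the membrane. Rgs7bp stood at 3.83, 3.71, 3.93, 3.74 and 3.88 with oil and at 10.82, 10.58, 10.77, 10.28 and 10.87 with EE2, a difference of 6.85 (115-fold). Rgs7 stood at 2.99, 3.07, 3.04, 3.55 and 3.08 with oil and at 6.49, 7.11, 7.02, 6.91 and 6.78 with EE2, a difference of 3.71. Oil array 8 was the highest oil array for Rgs7 and was still 2.94 under the lowest EE2 array. On the PBS and CPZ arrays Rgs7bp lay between 3.61 and 4.04 and Rgs7 between 2.78 and 3.31.

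Among the genes with the next largest changes, Dntt and Mmd2 had nearly the same level on every EE2 array. Dntt encodes terminal deoxynucleotidyl transferase, which adds bases to antigen receptor joints in developing lymphocytes. It stood at 4.47, 4.52, 3.88, 4.30 and 4.72 with oil and at 10.03, 9.92, 9.87, 9.91 and 9.96 with EE2, a difference of 5.56 (47.1-fold), with an SD of 0.06 over the EE2 arrays. Mmd2, a member of the progestin and adipoQ receptor family, stood at 4.49, 4.53, 4.38, 4.71 and 4.84 with oil and at 9.97, 9.80, 9.85, 9.89 and 9.90 with EE2, a difference of 5.29 (39.1-fold, SD with EE2 0.06). Mmd2 was not low everywhere, since its PBS arrays lay between 5.22 and 6.69 and its CPZ arrays between 4.81 and 6.80. All EE2 arrays were above all 15 other arrays for both genes.

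Osbpl3 and Scd3 are lipid genes. Osbpl3, an oxysterol-binding protein family member found at contacts between the endoplasmic reticulum and the plasma membrane, stood at 3.51, 3.59, 3.24, 3.55 and 3.85 with oil and at 8.75, 8.63, 8.67, 8.41 and 8.78 with EE2, a difference of 5.10. Scd3, a stearoyl-CoA desaturase known from the sebaceous gland, stood at 3.47, 3.46, 3.43, 3.40 and 3.63 with oil and at 8.59, 8.57, 8.72, 8.29 and 7.88 with EE2, a difference of 4.93. Scd3 has close relatives in the genome, and probes that bind more than 1 of them cannot be told apart in these values. For both genes the lowest EE2 array was over 4 above the highest oil array.

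Ly6d, a surface protein of epithelia and early B-lineage cells, and Ovgp1, the oviduct glycoprotein that estrogen is known to induce in the oviduct, followed. Ly6d stood at 4.11, 3.97, 4.09, 3.93 and 3.43 with oil and at 9.01, 9.01, 8.99, 8.23 and 8.02 with EE2, a difference of 4.75. Ovgp1 stood at 3.69, 3.71, 3.53, 4.02 and 3.89 with oil and at 8.94, 8.34, 7.69, 8.25 and 9.16 with EE2, a difference of 4.71. EE2 arrays 17 and 18 were the lower ones for Ly6d, while for Ovgp1 array 18 was the highest and array 15 the lowest.

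The remaining genes of the 12 with the largest changes are known from germ cells, cilia, muscle and skin or from DNA metabolism. Rad51b, a gene of DNA repair by homologous recombination, stood at 3.27, 3.39, 2.84, 3.32 and 3.36 with oil and at 7.57, 8.25, 6.94, 8.10 and 8.27 with EE2, a difference of 4.59. Lmod3, a leiomodin that nucleates actin filaments in skeletal muscle, stood at 2.61 to 2.84 with oil and at 7.48, 7.34, 6.65, 7.19 and 7.86 with EE2, a difference of 4.56. In both genes EE2 array 15 was the lowest. Rsph4a, a radial spoke protein of motile cilia, stood at 2.62 to 2.70 with oil and at 7.57, 6.89, 6.75, 7.62 and 7.06 with EE2, a difference of 4.53. Trex2, a DNA exonuclease of keratinocytes, stood at 2.66 to 2.95 with oil and at 7.83, 7.07, 6.75, 6.93 and 6.98 with EE2, a difference of 4.36. These 4 genes lay among the receptor genes with oil, so their changes are lower bounds.

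**Figure D2:**
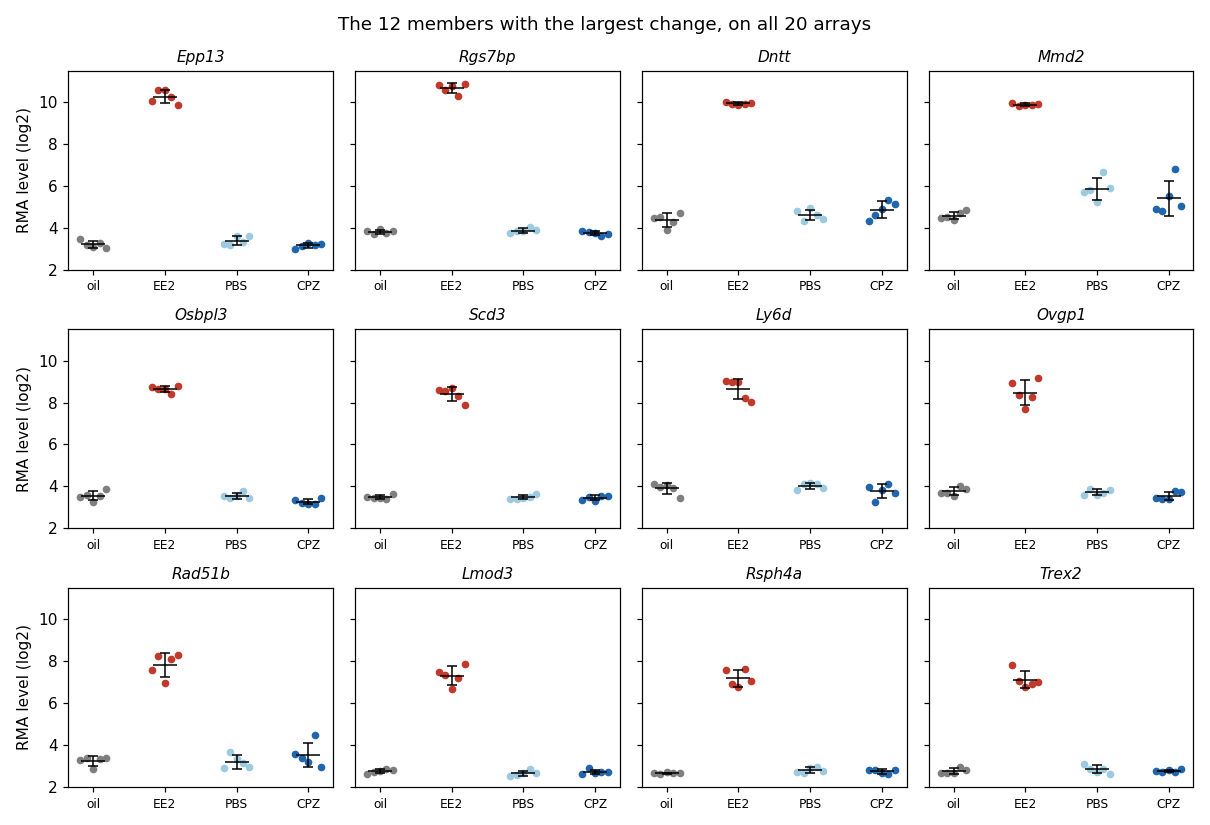
Log2 RMA level (vertical axis) of the 12 genes with the largest change on each of the 20 arrays, by group (oil for the EE2 vehicle, PBS for the CPZ vehicle), with the group mean and SD over 5 arrays in black. The EE2 points stand above all others in each panel, and Mmd2 is the gene with the highest PBS and CPZ points.

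The sequence around the start sites is shown to let motifs of estrogen and growth hormone signalling be looked for in it. Promoter windows of RefSeq (GRCm38.p6; 250 bases before to 50 after the start) were matched by gene ID for 64 of the 82 genes, with 75 windows in all. A full estrogen response element, the arms GGTCA and TGACC with any 3 bases between, was searched on both strands. It was in none of these windows and in 0.0304% of 13162 named genes with a window. With up to 1 mismatch in its fixed bases it was in 2 of the 64 genes (3.12%) and in 0.972% of all genes with a window. These were Ovgp1, in the window chr3:105973552-105973851 on the plus strand, and Ica1, an islet autoantigen gene, in chr6:8778435-8778734 on the minus strand, and the match is in capitals below. Counted from 1 at the 5′ end of the motif, Ovgp1 carries the substitution C13T and Ica1 C13G.
Ovgp1: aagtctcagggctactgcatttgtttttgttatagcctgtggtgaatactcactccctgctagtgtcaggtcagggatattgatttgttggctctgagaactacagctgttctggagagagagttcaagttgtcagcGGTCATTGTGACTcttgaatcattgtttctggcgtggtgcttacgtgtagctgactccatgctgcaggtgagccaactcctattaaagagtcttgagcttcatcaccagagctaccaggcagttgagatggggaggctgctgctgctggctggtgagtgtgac
Ica1: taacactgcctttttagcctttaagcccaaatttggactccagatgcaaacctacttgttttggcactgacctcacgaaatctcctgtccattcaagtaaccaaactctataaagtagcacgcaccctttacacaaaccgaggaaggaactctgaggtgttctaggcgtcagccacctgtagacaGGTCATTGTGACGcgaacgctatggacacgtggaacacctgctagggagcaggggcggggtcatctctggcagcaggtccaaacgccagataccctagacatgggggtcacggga

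The STAT5 type motif TTCNNNGAA, the letters bound by the proteins that carry the growth hormone signal, was in the windows of 10 of the 64 genes (15.6%) and in 8.74% of all genes with a window. The genes were Chil3, Vopp1, Pik3c2g, Ifitm6, Ssbp4, Casp12, Calml4, Tinag, Slc25a36 and Pla2g7. Stat5a, which encodes one of these proteins, is itself a low-level gene of the set. It stood at 3.92, 4.00, 3.76, 3.87 and 3.97 with oil and at 6.72, 6.30, 5.96, 6.01 and 6.68 with EE2, a difference of 2.43. The shares with the motif were not compared by a test, and a link between Stat5a and these motifs was not tested. Casp12, a caspase of the endoplasmic reticulum, held 2 matches, in capitals in its window chr9:5345226-5345525 on the plus strand.
Casp12: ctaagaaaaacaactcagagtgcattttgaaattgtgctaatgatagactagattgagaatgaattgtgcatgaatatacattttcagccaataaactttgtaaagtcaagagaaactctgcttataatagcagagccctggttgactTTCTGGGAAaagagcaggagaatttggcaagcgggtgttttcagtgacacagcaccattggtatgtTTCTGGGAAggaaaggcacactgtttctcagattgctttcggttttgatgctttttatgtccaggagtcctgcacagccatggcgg
The AP-1 type motif TGANTCA was in the windows of 5 of the 64 genes (7.81%), Ifi209, Capn8, Ctcflos, Ovgp1 and Acot10, and in 7.48% of all genes with a window. In Ovgp1 it did not overlap the estrogen response element match. A match is a description of the letters, and the windows cover the start site alone.

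By known role, 14 of the 82 genes encode enzymes and lipid-handling proteins, with changes from 2.16 to 5.10. Besides Scd3 and Osbpl3 these were led by Chst8, a sulfotransferase for sugar chains of pituitary hormones (3.95), Gpat3, which makes lysophosphatidic acid for triglyceride synthesis (3.69), Pgap4, a glycosyltransferase of GPI anchors (3.66), Mtmr11, a myotubularin relative (3.56), and Eci3, an enoyl-CoA isomerase (3.53). Cbr3, a carbonyl reductase, was 3.18 higher, Akr1c18, which inactivates progesterone, 3.04, Acnat2, a peroxisomal acyltransferase, 2.85, Pik3c2g, a phosphoinositide kinase, 2.73, and Pla2g7, which hydrolyses platelet-activating factor, 2.71. Asns, asparagine synthetase, was 2.30 higher and Acot10, an acyl-CoA thioesterase, 2.16. Of the 14 genes 6 lay among the receptor genes with oil.

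Transporters and channels made up 9 genes, with changes from 2.02 to 3.92. Atp13a5, a P5-type ATPase, was 3.92 higher, the magnesium transporter relatives Nipal1 and Nipa1 3.62 and 2.05, and Slc25a36, a mitochondrial carrier of pyrimidine nucleotides, 3.44. The organic anion transporter relatives Slc22a29 and Slc22a27 were 3.40 and 2.02 higher, Asic2, an acid-sensing ion channel, 2.49, Slc34a2, a sodium-phosphate cotransporter, 2.37, and Slc16a5, a monocarboxylate transporter relative, 2.21. The 2 Slc22a genes are close relatives, so cross-hybridisation between them was not tested.

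Signalling proteins made up 8 genes: beside Rgs7bp, Rgs7, Mmd2 and Stat5a these were Gipc2, a PDZ protein (2.79), Grk3, a kinase that desensitises receptors (2.52), Mtnr1a, a melatonin receptor (2.40), and Calml4, a calmodulin relative (2.13). Among 13 secreted proteins and cell-surface proteases, with changes from 2.12 to 4.71, Bmper, a modulator of bone morphogenetic proteins, was 4.13 higher, Corin, the protease that activates atrial natriuretic peptide, 4.07, and Esm1, an endothelial proteoglycan, 3.49. Tinag, a basement membrane protein, was 3.42 higher, Afp, the fetal serum protein of hepatocytes, 3.06, Ctse, an aspartic protease, 2.88, Epdr1 2.76 and Tmprss2, a serine protease of epithelia, 2.48. Defb1, an epithelial defensin, was 2.24 higher, Wfdc12, an antibacterial protein, 2.20, Ccn5, a matricellular protein, 2.20, and Spon1 2.12. Surface and junction proteins were Ly6d, the tetraspanin Tspan8 (3.58), the tight junction protein Marveld3 (2.61) and Itga2, a collagen-binding integrin chain (2.03).

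Afp was close to the same on most EE2 arrays. It stood at 3.62, 3.56, 3.57, 3.95 and 3.78 with oil and at 6.89, 6.95, 6.21, 6.82 and 6.89 with EE2. EE2 array 15 was the low one, and its value was still 2.26 above the highest oil array.

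Genes of DNA, chromatin and germ cells made up 7: Dntt, Rad51b and Trex2, then Spo11, which makes the DNA breaks of meiosis (2.99), the long noncoding RNA Ctcflos (2.56), the imprinted gene Peg3 (2.48) and Ssbp4 (2.18). Spo11 stood at 2.68, 2.79, 2.64, 2.73 and 2.97 with oil and at 5.21, 5.82, 5.62, 6.30 and 5.80 with EE2, and no array of PBS or CPZ was above 2.96. Cytoskeletal, ciliary and lens proteins made up 8: Lmod3, Rsph4a, Tppp3, a tubulin polymerisation protein (4.10), Fam107a, an actin-associated stress protein (3.81), the unconventional myosin Myo15b (3.36), the lens crystallin Crybb3 (3.21), the focal adhesion protein Tes (2.22) and Filip1l (2.11). The genes left over by role were Epp13, Elapor1 (2.77), Prelid2 (2.48), Fbxw17 (2.46), the calpain Capn8 (2.34), Vopp1 (2.05) and Ica1 (2.03).

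Immune, interferon and cell death genes made up 12, with changes from 2.00 to 4.22 and a median of 2.34. Ifi27l2b, an interferon-inducible gene, was 4.22 higher, Chil3, a chitinase-like protein of macrophages, 3.03, Ifitm6, an interferon-induced membrane protein, 2.57, and Icam4 2.47. Casp12 was 2.38 higher and Pmaip1, a BH3-only protein of apoptosis, 2.33. The interferon-inducible DNA sensor relatives Ifi209, Ifi207 and Ifi204 were 2.35, 2.07 and 2.00 higher, Ms4a6d 2.14, Slfn2, a regulator of lymphocyte and monocyte quiescence, 2.09, and Pf4, the platelet chemokine, 2.05. The 3 Ifi genes are close relatives, so their values may not be independent of each other. Chil3 stood at 2.95, 2.54, 2.65, 2.60 and 3.08 with oil and at 5.39, 5.79, 5.99, 5.98 and 5.82 with EE2, without overlap.

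Markers of immune cells moved with these genes. Of 17 measured macrophage markers 16 rose with EE2 and none fell (limma, Benjamini-Hochberg over all genes, threshold 0.05), where 19.2% of all genes rose and 26.7% fell. Their mean level per array was 7.57 to 7.88 with oil, 8.80 to 9.44 with EE2, 7.22 to 7.61 with PBS and 7.76 to 8.60 with CPZ. Csf1r, the receptor for the macrophage growth factor, rose by 1.80 (SE 0.13, limma adjusted p = 2.88e-10), and Clec4f, a Kupffer cell lectin, by 1.68 (SE 0.13, limma adjusted p = 1.04e-09). Of 14 lymphocyte markers 9 rose and 1 fell, of 13 neutrophil markers 6 rose and none fell, of 11 markers of lipid-associated macrophages 6 rose and none fell, and of 9 plasma cell markers 5 rose and 1 fell. With each array centred on its median the counts higher and lower were 16 and 0 for macrophage, 9 and 2 for lymphocyte, 5 and 2 for neutrophil, 4 and 2 for lipid-associated macrophage and 3 and 1 for plasma cell markers. The part of these cells in the rise of the low-level genes was not tested.

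Few markers of the testis, neuron, mast cell, squamous, intestine and pancreas lists passed the test as higher. The part of such cells in the rise of the low-level genes was not tested. Of 17 testis and sperm markers none rose and 1 fell, of 14 neuron markers none rose and 2 fell, and of 10 mast cell and basophil markers none rose and 1 fell. Of the 16 squamous and glandular epithelium markers beside Ly6d 2 rose and 6 fell, of 15 intestine markers 2 rose and 2 fell, and of 10 pancreas markers 1 rose and 4 fell. The mean level per array of the testis and sperm markers was 3.01 to 3.08 with oil and 2.85 to 2.92 with EE2, near the receptor genes, and that of the neuron markers 2.95 to 3.04 with oil and 2.79 to 2.90 with EE2. The median of the receptor genes was 2.90 with oil and 2.75 with EE2. Of 13 cholangiocyte markers 2 rose and 4 fell, of 14 stellate cell and fibroblast markers 5 rose and 4 fell, of 14 endothelial markers 2 rose and 6 fell, of 6 erythroid markers none rose and 3 fell, of 9 adipocyte markers 3 rose and 4 fell, and of 8 hepatocyte markers 1 rose and 4 fell. The median changes of the cholangiocyte, stellate and endothelial lists were -0.04, 0.05 and -0.23, beside -0.07 for all genes. With centred arrays the stellate median turned to -0.11. In that scaling 59.4% of all genes fell and 12.5% rose, and the markers that fell were 15 of the testis and sperm list, 14 of the neuron list, 12 of the squamous and glandular list, 11 of the intestine list, 9 of the pancreas list and 8 of the mast cell and basophil list.

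More genes of the lists nearest to estrogen and to female liver rose than fell, where 19.2% of all genes rose and 26.7% fell. The lists were written with earlier results of these data known. They also overlap, and Cyp17a1 counts in both the female-biased and the estrogen-responsive list. Of 33 female-biased liver genes outside the set 19 rose and 5 fell with EE2, with a median of 0.44, and the set itself holds Nipal1 and Slc16a5 of this list. Of 36 estrogen-responsive genes 15 rose and 6 fell, with a median of 0.29, and none is in the set. Greb1 and Cyp17a1 of this list passed both thresholds, with changes of 2.53 and 7.20, but the rule left them out by name or family. The same holds for Sult3a1 and Sult1e1 of the female-biased list, with changes of 7.91 and 6.25. Of 21 cell cycle genes 15 rose and 2 fell, with a median of 0.47. With centred arrays, which moved the median change of all genes to -0.23, the counts became 15 and 10 for the female-biased, 13 and 12 for the estrogen-responsive and 12 and 4 for the cell cycle genes. Of the 82 low-level genes 79 are in none of the 20 lists. List genes that the rule left out, Prtn3 and S100a8 of the neutrophil list among them, could not be counted here.

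The low-level genes varied more between EE2 arrays than other genes of the same EE2 level did. Their median SD over the 5 EE2 arrays was 0.35, beside 0.11 for the 6874 other genes whose EE2 mean lay in the same range of 5.11 to 10.66. With oil their median SD was 0.15, and the EE2 SD was above the oil SD in 68 of the 82 genes, beside 50.7% of all genes. Among genes that passed both thresholds but were left out, the EE2 SD was 0.65 for Sult1e1, 0.32 for Greb1, 0.19 for Sult3a1 and 0.08 for Prtn3. Such genes were not compared as a group, so the spread is not shown to be particular to the set. No test is given, since the rule used the EE2 and oil arrays. EE2 array 15 was the lowest of the 5 in 34 genes and the highest in 11, and array 18 was the lowest in 5 and the highest in 24. The median deviation from the gene's EE2 mean was -0.22 on array 15 and 0.12 on array 18.

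The 5 genes with the largest SD on the EE2 arrays did not share an order of arrays. Tppp3 stood at 8.40, 7.06, 6.66, 6.51 and 8.38 on arrays 9, 13, 15, 17 and 18, and Slc25a36 at 6.49, 7.19, 5.19, 6.00 and 7.44. Array 18 was high for both, and array 9 was the highest for Tppp3 and in the middle for Slc25a36. Wfdc12 stood at 7.11, 6.24, 6.27, 4.79 and 6.03, Tinag at 5.76, 6.76, 5.56, 7.49 and 6.53, and Slc16a5 at 7.49, 6.14, 5.67, 6.39 and 7.05. Array 9 was the highest for Wfdc12 and Slc16a5 too, and array 17 was the lowest for Wfdc12 and the highest for Tinag. On the oil arrays these genes lay between 3.23 and 3.37 for Tppp3, 2.82 and 3.27 for Slc25a36, 3.44 and 4.14 for Wfdc12, 2.88 and 3.21 for Tinag and 3.75 and 4.92 for Slc16a5. Dntt, Mmd2 and Ica1, at 0.06, 0.06 and 0.07, had the smallest SD on the EE2 arrays.

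**Figure D3:**
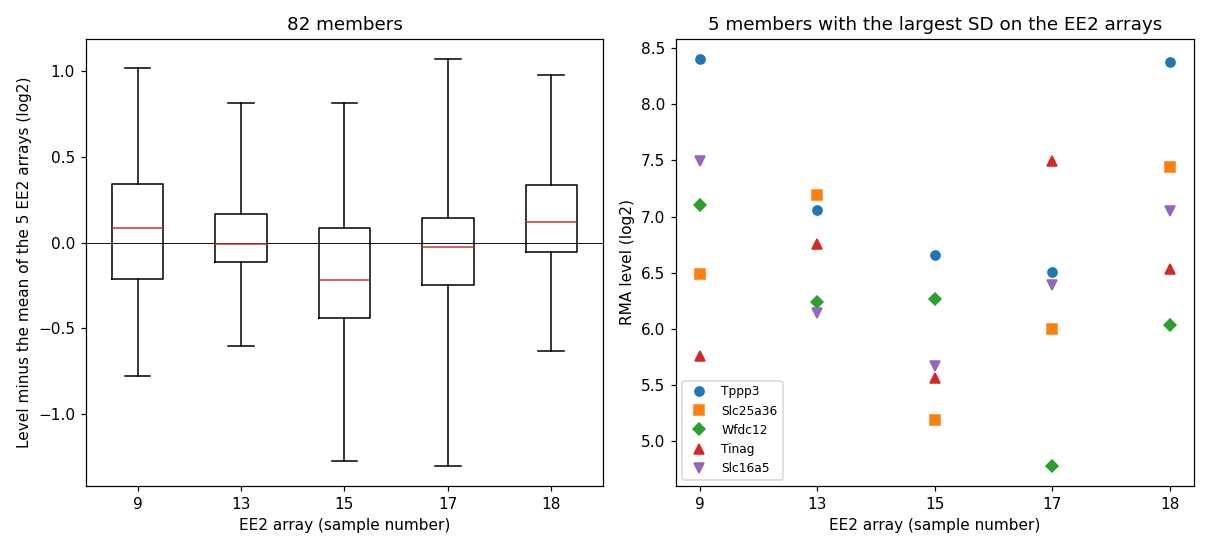
Left, deviation of each of the 82 genes from its mean over the 5 EE2 arrays (vertical axis, log2), by array, with the median (red), the quartiles (box) and the lowest and highest gene (whiskers). Right, log2 RMA level of the 5 genes with the largest SD on the EE2 arrays. The median is lowest on array 15, and the 5 genes differ in which array is highest.

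The PBS and CPZ arrays played no part in the choice and showed the genes at low levels too. With PBS 78 of the 82 genes had a mean under 5, where 54.9% of all named genes did so. The 4 above it were Mmd2 at 5.87, Asns at 6.27, Acnat2 at 5.21 and Defb1 at 5.04. With CPZ 73 had a mean under 5, where 54.6% of all named genes did so. The choice by a low oil level makes low levels on these arrays likely. Every EE2 array was above every PBS array in 81 of the 82 genes, where 13.9% of all genes did so, and above every CPZ array in 80, where again 13.9% did. The exceptions were Asns against both groups and Slc16a5 against CPZ. Since the EE2 arrays chose the genes, nothing is read from these counts.

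Oil and PBS differed little for the set, which is a description because the rule limited the oil level. The median of oil minus PBS was -0.015, beside 0.0027 for all genes under 5 with oil, and 46 of the 82 genes were lower with oil. Differences over 0.5 were found for 4 genes, Mmd2, Esm1, Asns and Defb1, all lower with oil. Asns stood at 4.82, 4.90, 4.40, 5.12 and 5.11 with oil and at 5.25, 6.09, 5.82, 7.74 and 6.44 with PBS. The oil arrays of Asns thus lay below all PBS arrays, and PBS array 19 was above all EE2 arrays, which ran from 6.42 to 7.68. For Esm1 PBS array 19 stood alone at 6.37, while the other PBS arrays lay between 3.26 and 3.45 and the oil arrays between 3.07 and 3.66.

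CPZ against PBS asked whether another cholestatic drug raised the same genes, and 1 of the 82 passed the test. Acnat2 stood at 5.13, 5.47, 5.62, 4.14 and 5.68 on PBS arrays 7, 10, 14, 19 and 20 and at 6.84, 6.61, 5.92, 6.85 and 6.21 on CPZ arrays 1, 3, 4, 11 and 12. It rose by 1.28 (SE 0.28, limma adjusted p = 0.0365 over all genes), and all CPZ arrays were above all PBS arrays. With CPZ 0.796% of all genes passed the test and 0.443% of all genes rose, beside 1 of the 82. The EE2 arrays enter the SE of the test, as described below, so these shares are not like for like. The call was lost without PBS array 7, 14 or 19 or CPZ array 1, 3 or 11, with an adjusted p from 0.0506 to 0.0849, while the change stayed between 1.01 and 1.42 over the 10 omissions. With EE2 Acnat2 stood at 8.28, 7.04, 7.43, 7.64 and 7.84, above all CPZ arrays.

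No other gene of the set passed the test with CPZ. Gpat3 differed by 0.79 (SE 0.23, limma adjusted p = 0.12), from 3.89, 4.94, 4.99, 4.58 and 4.58 with PBS to 5.45, 5.37, 5.14, 5.85 and 5.12 with CPZ. Calml4 differed by 0.48 (SE 0.15, limma adjusted p = 0.127), from 3.72, 4.01, 3.99, 3.75 and 3.89 to 4.05, 4.45, 4.32, 4.70 and 4.26. In these genes and Acnat2 every CPZ array was above every PBS array, and 1.57% of all genes did so. At an unadjusted p under 0.05 by limma there were 11 of 82 genes, or 13.4%, 10 of them higher with CPZ, beside 12.2% of all genes. The SE pools the spread of all groups, and the EE2 arrays that made the choice are among them. The median EE2 SD was 0.35 for the set and 0.11 for all genes, so these shares are not like for like. From the arrays of the comparison alone, the SE was 0.20 for Gpat3, 0.11 for Calml4 and 0.28 for Acnat2. The median change with CPZ was 0.07, beside 0.01 for all genes, and 56 of the 82 genes were higher, beside 52.8% of all genes.

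Of the 82 genes 25 lay among the receptor genes with both PBS and CPZ, Epp13 included, where an interval does not limit the true change. The 95% interval of the CPZ change, from limma and not adjusted for the number of genes, lay under 2 for all 82 genes and under 1 for 78. These intervals use the same pooled SE, so their width too depends on the spread of the EE2 arrays. The largest upper bound was 1.87, for Acnat2. For Rgs7bp the interval ran from -0.31 to 0.06, for Epp13 from -0.49 to 0.04 and for Dntt from -0.10 to 0.59. Pf4, Ms4a6d and Slfn2, of the immune group, differed by 0.49, 0.47 and 0.30 with CPZ (limma adjusted p = 0.18, 0.184 and 0.306). Of the cell type markers, 4 of 14 endothelial and 3 of 17 macrophage markers rose with CPZ and none of either fell, where 0.443% of all genes rose. The part of those cells was not tested.

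**Figure D4:**
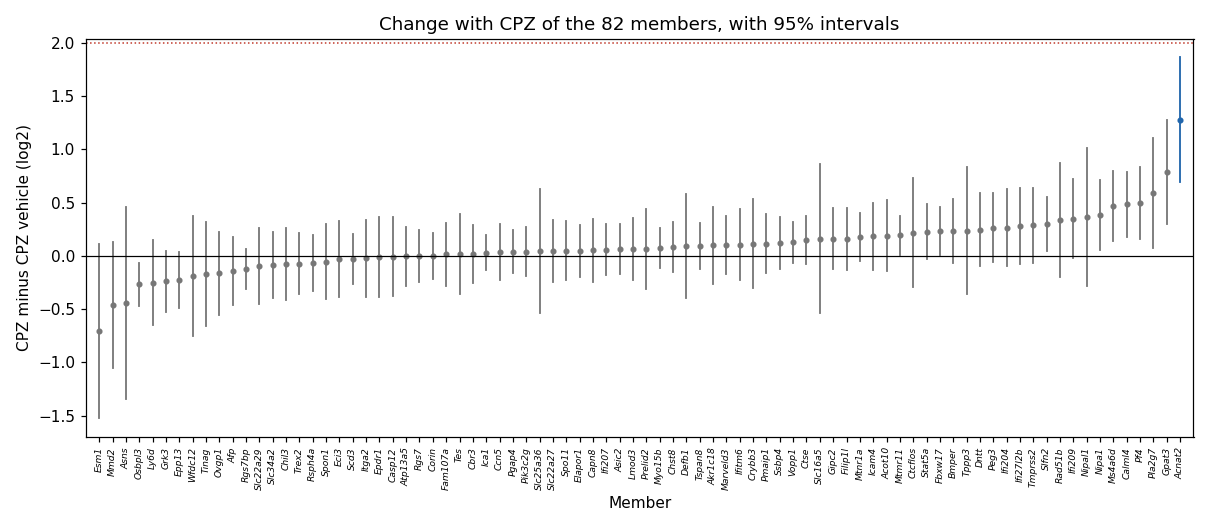
CPZ minus CPZ vehicle (vertical axis, log2) for each of the 82 genes, ordered by the change, with the 95% interval from limma. Acnat2, in blue at the right, is the gene that passed the test; the dotted line marks 2, the rise with EE2 that the rule asked for, and no interval reaches it.

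Some of the genes lie near each other in the genome. The set is spread over 20 chromosomes, and in the gene order of RefSeq 23 of the 82 genes form 12 pairs of next members with at most 10 coding genes between them. Ifi207 and Ifi204 are adjacent, and Ifi209 precedes Ifi207 with 1 coding gene between. Slc22a27 and Slc22a29, as well as Grk3 and Crybb3, have 1 coding gene between them, Ovgp1 and Chil3 as well as Corin and Nipal1 have 3, Spo11 and Ctcflos have 4, and Acnat2 and Pgap4 as well as Afp and Pf4 have 5. The wider pairs were Asns and Ica1 with 6, Esm1 and Itga2 with 7, and Ccn5 and Wfdc12 with 8. No comparison with other sets was made, so whether such pairs are more frequent here was not tested.

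Of 32 measured coding genes between pair members 7 rose and 11 fell with EE2, or 21.9% and 34.4%, beside 19.2% and 26.7% of all genes. With centred arrays 5 rose and 16 fell, or 15.6% and 50%, beside 12.5% and 59.4% of all genes. Between Corin and Nipal1, which were 4.07 and 3.62 higher, Nfxl1 differed by 0.13, Zar1 by -0.11 and Cnga1 by 0.14 (limma adjusted p = 0.248, 0.596 and 0.193). Between Ovgp1 and Chil3, Pifo fell by 0.22 (limma adjusted p = 0.021) and Chia1 differed by 0.02 (limma adjusted p = 0.891). The 7 that rose were Arl15, Fst and Mocs2 between Esm1 and Itga2, by 1.37, 1.34 and 0.17, Stk4 and Ywhab between Ccn5 and Wfdc12, by 0.54 and 0.25, and Rassf6 and Ppbp between Afp and Pf4, by 0.43 and 1.12. Ppbp, like Pf4, is known from platelets.

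**Figure D5:**
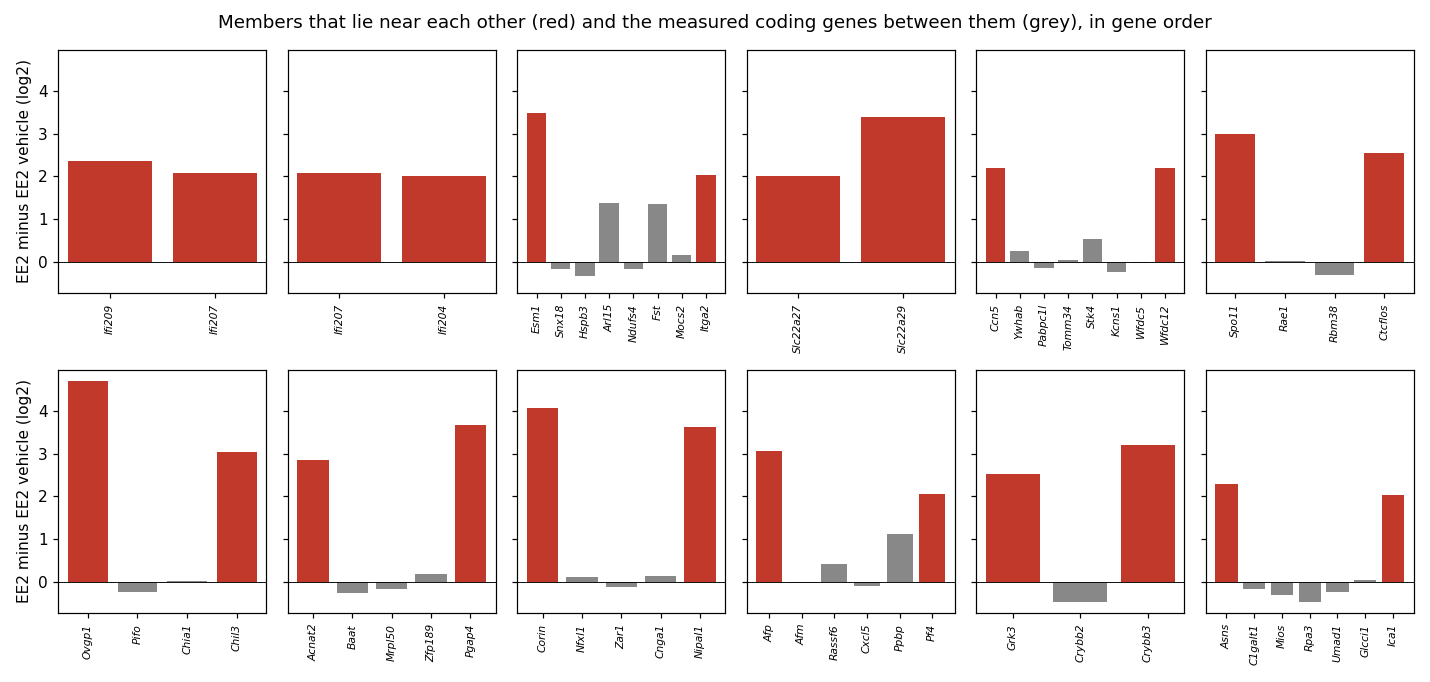
EE2 minus EE2 vehicle (vertical axis, log2) for the 12 pairs of genes of the set that lie near each other (red bars) and for the measured coding genes between them (grey bars), in gene order and not to scale in distance. Most grey bars are near 0; Arl15, Fst and Ppbp exceed 1.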

How the data were processed

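Liver RNA of 20 samples was hybridised to Affymetrix arrays after amplification with a 3′ IVT Express kit, per the labels' protocols, from tissue of the left lateral lobe. The deposited values are log2 levels that the authors made with RMA, per the submitters' processing notes, which corrects background, normalizes between arrays and summarises probes; the sources used here give neither its version nor the probe definition. The log2 values were used as deposited. The table holds 17306 probe sets, of which 16464 have 1 gene symbol, 0 have several and 842 have none in the platform annotation used here, and unnamed probe sets were left out.

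The genes were found by the rule in the opening, and the genes and lists were chosen with earlier results of these data known. CPZ against PBS, and EE2 against oil for list genes outside the set, were tested with limma 3.58.1 in R 4.3.3 on 4 group means over all 20 arrays, with Benjamini-Hochberg adjustment over 16464 genes and a threshold of 0.05. The script was tested on simulated data: for CPZ minus PBS with 16464 genes it recovered 92% of 50 genes shifted by 0.5, 98% of 50 shifted by 1 and 100% of those shifted by 2 or 4, and 7 of 202 calls were false. Array files carry no read depth. Scaling, thresholds, low-level filters, variance models, array weights and omission of single arrays were tried as alternatives. Promoter windows and gene order came from RefSeq (GRCm38.p6), and motifs were searched on both strands. At most 4 genes of a list were named, by smallest p.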

Additional observations from a re-analysis of the deposited data

Results flagged for a closer look

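In each group of 5 arrays the highest or lowest array of each of the 82 genes was compared with the rest, and 21 of 328 groups held 1 array that stood far from the other 4, where chance gives about 1 in 20. On the PBS arrays 5 of them fell on array 19: Esm1 at 6.37 (others 3.26 to 3.45), Grk3 at 5.04 (4.40 to 4.53), Ifi209 at 4.12 (3.50 to 3.60), Osbpl3 at 3.78 (3.43 to 3.52) and Elapor1 at 3.71 (3.09 to 3.24), all highest there. Other PBS arrays that stood apart were array 20 for Eci3 at 3.72 (3.28 to 3.36), array 14 for Slc22a29 at 4.60 (3.58 to 3.83) and for Ifi207, lowest at 3.53 (3.82 to 3.93), and array 10 for Wfdc12, lowest at 3.40 (4.16 to 4.27).

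On the oil arrays, array 2 was highest for Acnat2 at 5.61 (4.49 to 4.65) and Icam4 at 4.42 (3.67 to 3.88) and lowest for Akr1c18 at 3.71 (4.06 to 4.19). Array 6 was lowest for Rad51b at 2.84 (3.27 to 3.39) and highest for Vopp1 at 5.07 (4.85 to 4.90), array 8 was highest for Rgs7 at 3.55 (2.99 to 3.08), and array 16 was lowest for Ly6d at 3.43 (3.93 to 4.11). On the CPZ arrays, array 11 was highest for Ms4a6d at 5.04 (3.97 to 4.17) and Pmaip1 at 3.95 (3.07 to 3.32), and array 1 for Epdr1 at 3.27 (3.01 to 3.05). With EE2 array 15 was lowest for Afp at 6.21 (6.82 to 6.95) and array 9 for Ifi204 at 6.64 (7.01 to 7.12).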

How the results depend on the processing

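The set depends on the thresholds and the scaling. A rise of at least 1.5 gives 153 genes, which hold all 82, and at least 3 gives 36. An oil level under 4 gives 55 genes and under 6 gives 104. Quantile normalization gave 72 genes and centred arrays 69, all of them among the 82, while leaving out single arrays gave 78 to 85. With the PBS arrays as the reference, an alternative chosen after seeing the data, 7 of the 82 genes were lost, namely Acnat2, Asns, Defb1, Mmd2, Nipa1, Slc16a5 and Slc22a27, and 14 others were gained. The number of genes of the set that passed the CPZ test was 1, and 0 with an intensity trend and robust prior (Acnat2 adjusted p = 0.0513 by limma) and with the 10 arrays of the comparison alone (limma adjusted p = 0.0884); it was 0 to 1 without single arrays, and 0 without PBS array 7, 14 or 19 or CPZ array 1, 3 or 11. The change of Acnat2 was 1.01 to 1.42 without single arrays. Of the 288 list genes outside the set 55 fell, and 132 fell with centred arrays, where 59.4% of all genes fell; 147 to 156 passed in either direction without single arrays, 97 to 104 higher and 46 to 56 lower. The median of oil minus PBS was -0.03 to -0.006 without single arrays, and 78 to 79 genes were under 5 with PBS. The filter on low levels removed none of the 82 genes, since its mean includes the EE2 arrays. No paired analysis was possible because the groups compared share no sample number. Levels near the receptor genes give changes that are lower bounds.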

Other observations

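Values of close relatives of the low-level genes, picked after they were seen, are given beside those of the genes, whose own change was fixed by the choice. Scd1, the main liver desaturase, fell by 1.91 (SE 0.32, limma adjusted p = 5.66e-05), from 11.81 to 9.90, while Scd3 was 4.93 higher, and Scd2 rose by 0.46 (SE 0.08). Of the partners and relatives of Rgs7, Gnb5, the G protein beta subunit that binds it, fell by 0.27 (SE 0.10, limma adjusted p = 0.044), Rgs9 fell by 0.17 (limma adjusted p = 0.0141), and Rgs6 and Rgs11 differed by -0.19 and -0.16 (limma adjusted p = 0.124 and 0.0526). These partners and relatives of Rgs7 stood at 2.85 to 3.33 with oil, among the receptor genes. The median of the receptor genes was itself 2.90 with oil and 2.75 with EE2, so nothing is read from falls of this size. With arrays centred, the median of all genes moved from -0.07 to -0.23, which makes falls larger.

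Stat5b, the STAT5 gene with the larger known role in the sex difference of mouse liver, rose by 0.39 (SE 0.08), where Stat5a was 2.43 higher. Cbr1 rose by 1.66 (SE 0.13) beside the 3.18 of Cbr3. Gpat4 fell by 0.67 (SE 0.09), Eci1 by 0.53 and Eci2 by 0.39, while Gpat3 and Eci3 were 3.69 and 3.53 higher. Trex1 rose by 0.41 (SE 0.09), and Mmd fell by 0.33 (SE 0.08), beside 4.36 for Trex2 and 5.29 for Mmd2. Nipa2 differed by -0.08 (limma adjusted p = 0.193).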
